A study of Danio rerio with 4 samples.

Results

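The keratin and claudin genes of zebrafish olfactory epithelium were examined in RNA from sorted olfactory sensory neurons (OSNs). Members were taken by symbol, as every gene whose symbol begins with krt, cyt1 or cldn. In any case of letters this gave 63 of the 29029 genes in the files, 51 with lower-case symbols and 12 in capitals. Of these, 25 were keratins by symbol and 38 were claudins. The keratin symbols include 3 krtcap genes, which are named for an association with keratinocytes and are not keratins, and the claudin symbols include 2 cldnd1 genes, which carry a claudin-like domain.

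All embryos were of the Tubingen/TLF strain, were raised to 48 hpf and carried a fluorescent transgene. The OMP class was sorted as RFP positive cells of OMP:RFP embryos, in which a promoter of the olfactory marker protein gene drives a membrane-bound RFP in ciliated OSNs. The TRPC2 class was sorted as Venus positive cells of TRPC2:Venus embryos, in which a promoter of the trpc2 channel gene drives a membrane-bound Venus in microvillous OSNs. Each class has 2 libraries of pooled cells, called biological replicates in the labels. The TRPC2 libraries came from fewer sorted cells and went through 2 rounds of T7 amplification, the OMP libraries through 1, so the effects of class, of cell number and of amplification cannot be told apart.

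Keratins are intermediate filament proteins of epithelial cells. A type I keratin pairs with a type II keratin to form the filaments that give a cell sheet its strength, and different pairs mark simple epithelia, basal epidermis and the outer layers of skin. Claudins are membrane proteins of tight junctions, which seal the space between epithelial cells and set which ions pass. At this stage the zebrafish olfactory pit is an opening in the skin, whose 2 layers are the superficial periderm and the basal epidermis. Both families are read here as a measure of skin and other epithelial RNA in each sort. Whether the sorted neurons make part of this RNA themselves was not tested. In sorted pools, fewer cells of a type and less RNA per cell cannot be told apart.

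The OMP libraries held 68098416 and 84599818 counts over genes, the TRPC2 libraries 49483362 and 60189797. Levels are RPM, reads scaled by the authors to the size of the library. With 3 counts as the floor, a count of 0 allows up to 0.0278 and 0.0269 RPM in OMP, or 0.0339 and 0.0356 RPM in TRPC2. Genes with a read numbered 25437 and 25542 in OMP, but 17885 and 17991 in TRPC2. As a check of the labels, ompb was at 185 and 218 RPM in OMP, against 0.24 and 6.95 RPM in TRPC2, and trpc2b at 2.80 and 3.82 RPM, against 13.5 and 24.2 RPM. Their paralogs were less clear: ompa was at 17.3 RPM in the first TRPC2 library, and trpc2a at 0.21 RPM in the second, below both OMP libraries. Globins and other red blood cell genes took up 1.72% and 14.4% of reads over genes in OMP. These 10 genes summed to 0.34 and 6.03 RPM in the TRPC2 libraries, where 7 of them had no read.

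Keratin RNA was much more abundant in the OMP sort, and claudin RNA differed far less between the sorts. The 25 keratins summed to 4021 and 7189 RPM in OMP, against 456 and 556 RPM in TRPC2. The OMP mean was 5605 ± 2240 RPM and the TRPC2 mean 506 ± 70.4 RPM (SD, n = 2 each), a ratio of 11.1. Both OMP libraries were far above both TRPC2 libraries, and the distance between the OMP libraries was larger than that between the TRPC2 libraries. On counts divided by TMM effective library sizes, which allow for unequal composition of the libraries, the log2 ratio of the keratin sums was 2.68 in place of 3.47.

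The 38 claudins summed to 1896 and 2066 RPM in OMP, against 1621 and 704 RPM in TRPC2. Their means were 1981 ± 120 and 1162 ± 649 RPM (SD, n = 2 each), a ratio of 1.70. The first TRPC2 library was close to the OMP libraries and the second was well below them. With TMM effective library sizes the log2 ratio of the claudin sums was 0.0023 in place of 0.77, so the size of the difference in summed claudins depended on the scaling. With 2 libraries against 2, the smallest p an exact two-sided permutation test allows is 0.333, and no p was computed for sums over members.

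**Figure D1:**
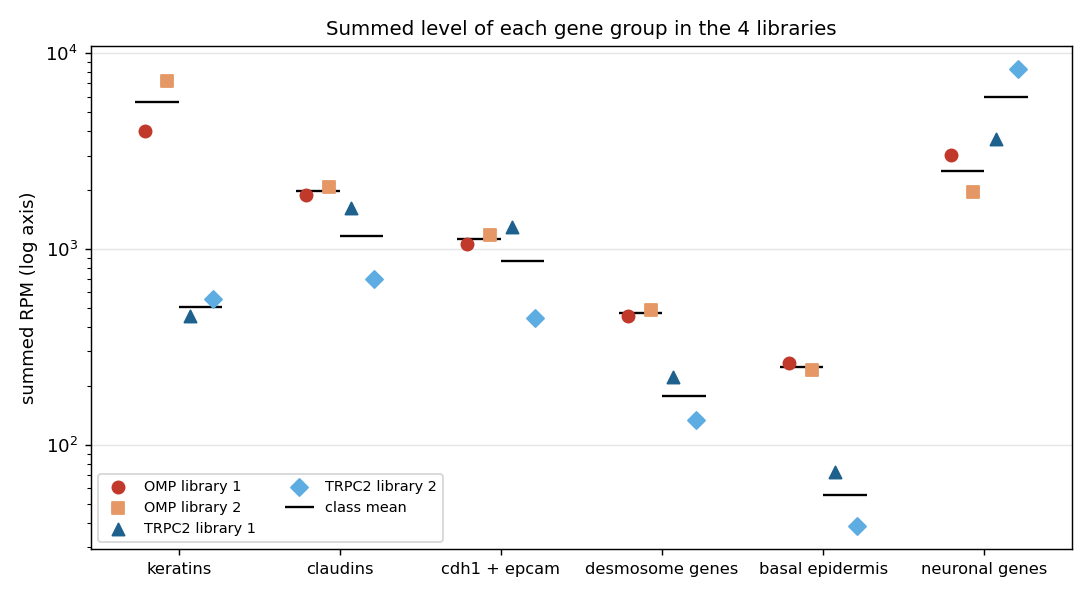
Summed level in RPM (log axis) of the keratins, the claudins and subsets or gene lists set beside them, with 1 symbol for each library and a line at each class mean. Keratin sums of 4021 and 7189 RPM in OMP stand apart from 456 and 556 RPM in TRPC2, while claudin sums of 1896 and 2066 RPM lie near the 1621 RPM of the first TRPC2 library.

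As a share of all gene reads, keratins made up 0.638% and 0.947% in OMP and 0.0815% and 0.0779% in TRPC2. Claudins made up 0.301% and 0.272% in OMP and 0.289% and 0.0986% in TRPC2. The 95% Wilson intervals of these shares were at most 0.00206 percentage points to either side. They take each read as independent, which amplified reads are not, so they are too narrow. They also leave out the spread between libraries. Within a library, keratin RPM were 2.12 and 3.48 times claudin RPM in OMP, and 0.282 and 0.790 times in TRPC2. Keratin reads outnumbered claudin reads in both OMP libraries and were fewer in both TRPC2 libraries, an order that no scaling of the libraries alters.

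krt4, a type II keratin of the superficial skin layer, was at 1644 and 2819 RPM in OMP, against 131 and 106 RPM in TRPC2, a ratio of means of 18.9. krt5, a type II keratin whose mammalian counterpart marks basal epidermis, was at 264 and 594 RPM in OMP, against 4.96 and 1.92 RPM in TRPC2. All OMP values of both genes were above all TRPC2 values, and the second OMP library was the highest for both. By edgeR's quasi-likelihood test the log2 fold change of OMP over TRPC2 was 3.46 (SE 0.48) for krt4 and 6.20 (SE 0.80) for krt5. The Benjamini-Hochberg adjusted p was 0.0721 for each, the lowest value in the fit and shared by 3337 genes. In edgeR fits without 1 library the log2 fold change ran from 2.99 to 3.82 for krt4 and from 5.47 to 6.85 for krt5. DESeq2 gave krt4 an adjusted p of 7.7e-07 and krt5 one of 1.5e-11, where the highest over all alternatives was 0.150 for both.

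krt91, a type I keratin by its symbol, was at 480 and 1376 RPM in OMP, against 2.53 and 0.69 RPM in TRPC2. krt97 was at 260 and 377 RPM in OMP, against 23.3 and 1.28 RPM in TRPC2. krtt1c19e, a type I keratin of basal epidermal cells in zebrafish, was at 96.9 and 391 RPM in OMP, had no read in the first TRPC2 library and was at 4.78 RPM in the second. The classes did not overlap for any of these genes, and the second OMP library was the highest for each. Their log2 fold changes in edgeR were 8.42 (SE 1.12), 3.96 (SE 1.38) and 5.86 (SE 2.52), with adjusted p of 0.0721, 0.136 and 0.206. With 1 library left out, the log2 fold change of krt91 in edgeR ran from 7.43 to 9.44. In those fits the log2 fold change of krt97 ran from 3.03 without the second TRPC2 library to 6.998 without the first, and that of krtt1c19e from 4.49 without the second OMP library to 17.4 without the second TRPC2 library, which leaves no TRPC2 read.

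cyt1, a type I keratin of the enveloping layer and periderm, was at 326 and 422 RPM in OMP, against 21.1 and 82.9 RPM in TRPC2. The related cyt1l was at 105 and 235 RPM in OMP, against 0.02 and 39.9 RPM in TRPC2. Neither gene overlapped between classes, but the TRPC2 libraries differed widely from each other, the first being the lower for both. edgeR gave log2 fold changes of 2.04 (SE 0.75, adjusted p = 0.154) for cyt1 and 2.27 (SE 2.35, adjusted p = 0.597) for cyt1l. krt92 was at 54.0 and 71.9 RPM in OMP, against 11.6 and 2.87 RPM in TRPC2, with a log2 fold change of 2.37 (SE 0.76, adjusted p = 0.112).

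The simple epithelial pair differed less. krt8, a type II keratin, was at 518 and 600 RPM in OMP, against 156 and 283 RPM in TRPC2, a ratio of 2.55. krt18, its type I partner, was at 182 and 179 RPM in OMP, against 63.1 and 9.84 RPM in TRPC2, a ratio of 4.95. The first TRPC2 library was the lower of its class for krt8 and the higher for krt18. edgeR gave krt8 a log2 fold change of 0.55 (SE 0.44, adjusted p = 0.487), close to the median of 0.49 over all 21026 genes tested, and krt18 one of 1.55 (SE 0.87, adjusted p = 0.318). Together the pair summed to 700 and 779 RPM in OMP, against 219 and 293 RPM in TRPC2. Without krt8, krt18 and the krtcap genes, the other keratins summed to 3292 and 6385 RPM in OMP, against 219 and 247 RPM in TRPC2, a ratio of 20.8.

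Keratin reads were thus divided differently in the sorts. krt4 took 40.9% and 39.2% of keratin reads in OMP and 28.7% and 19.0% in TRPC2. krt8 took 12.9% and 8.34% in OMP and 34.2% and 50.8% in TRPC2. krt91 took 11.9% and 19.1% in OMP and 0.555% and 0.124% in TRPC2. krt4 was the first of the keratins by reads in both OMP libraries, and krt8 was the first in both TRPC2 libraries, where reads are not scaled for gene length. Wilson intervals for shares within a family were at most 0.463 percentage points to either side, and are too narrow in the same way.

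**Figure D2:**
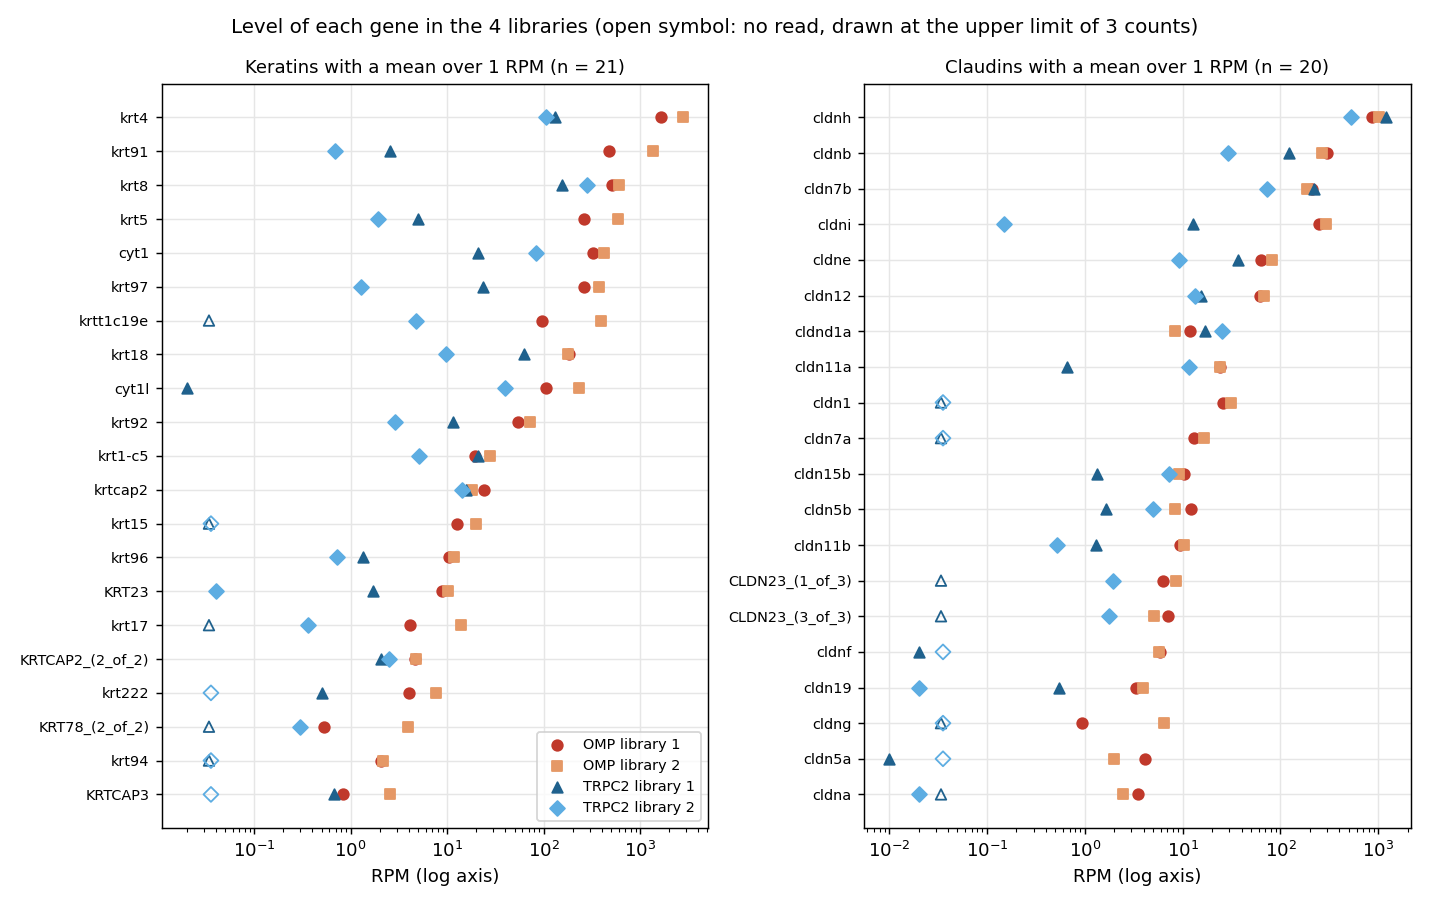
Level in RPM (log axis) of the 21 keratins and 20 claudins with a mean over 1 RPM, 1 symbol for each library and open symbols for no read, drawn at the upper limit that 3 counts set. krt91, krt5, cldni, cldn1 and cldn7a lie far lower in both TRPC2 libraries than in OMP, and cldnh, at 871 and 1026 RPM in OMP against 1189 and 524 RPM in TRPC2, shows overlap.

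The keratins of low level were mostly seen in OMP. krt15 reached 12.6 and 20.0 RPM in the OMP libraries without a read in either TRPC2 library, so its OMP mean was at least 469-fold higher than the mean floor of the TRPC2 libraries. krt94 was at 2.05 and 2.15 RPM in OMP, again with no read in TRPC2, at least 60.4-fold higher. krt17 was at 4.15 and 13.8 RPM in OMP, against 0 and 0.36 RPM in TRPC2. krt96, at 10.4 and 11.7 RPM, and KRT23, at 8.76 and 10.1 RPM, were each under 2 RPM in both TRPC2 libraries. krt1-c5 overlapped between classes, at 19.4 and 27.8 RPM in OMP, against 20.8 and 5.15 RPM in TRPC2. krt93 had no read in any library, and krt95 and KRT78_(1_of_2) were at 0.06 RPM or below throughout. A read was counted for 23 and 24 keratins in OMP, but for 16 and 18 in TRPC2.

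Of the krtcap genes, krtcap2 stood near even. krtcap2, whose mammalian counterpart is a subunit of the oligosaccharyltransferase of the endoplasmic reticulum, was at 24.2 and 18.04 RPM in OMP, against 15.6 and 14.3 RPM in TRPC2. Its log2 fold change in edgeR was -0.29 (SE 0.45, adjusted p = 0.736), and it turned to 0.38 with library totals only and to 0.47 in limma. KRTCAP2_(2_of_2) was at 4.65 and 4.78 RPM in OMP, against 2.07 and 2.49 RPM in TRPC2.

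Of the 25 keratins, 22 had both OMP libraries above both TRPC2 libraries by RPM, or 88%, where 53.3% of all 29029 genes did so. With TMM effective library sizes the count was 19 of 25, against 41.7% of all genes. Among the 21 keratins with a mean over 1 RPM, 20 were higher in both OMP libraries, against 53.2% of 15299 genes, and krt1-c5 was the exception. By RPM no keratin had both TRPC2 libraries above both OMP libraries. With TMM effective library sizes 1 of the 25 did, krtcap2, which is not a keratin. The krtcap genes were all among the 22 higher in OMP by RPM. The edgeR test called 0 of the 22 keratins tested at an adjusted p under 0.05, as it did 0.0% of all genes tested, and 9 keratins had an unadjusted p under 0.05 with a higher level in OMP, where 23.3% of tested genes did. Of these 9, krt15 and krt94 had no TRPC2 read and passed the filter on low counts through OMP alone. DESeq2 called 8 keratins and limma on log2(RPM + 0.5) called 11, all higher in OMP, where they called 13.2% and 23.5% of all genes in that direction. Without the first or the second OMP library edgeR called 5 or 4 keratins higher in OMP, where 0.582% and 0.272% of all genes were called so. Without the first or the second TRPC2 library it called 16 or 18, where 32.6% and 34.9% of all genes were. These fits take the lone library to vary like the others. The median log2 fold change of the tested keratins was 2.88, also with the 2 genes without a TRPC2 read at their bound, beside 0.49 over all genes tested.

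Among claudins, cldnh took the largest share of reads and did not differ in one direction. cldnh, which RefSeq also names as a claudin 3 gene, was at 871 and 1026 RPM in OMP, against 1189 and 524 RPM in TRPC2. The TRPC2 libraries lay on either side of the OMP libraries. The log2 fold change in edgeR was -0.62 (SE 0.50, adjusted p = 0.490), and it turned to 0.26 in limma. cldnh took 45.9% and 49.7% of claudin reads in OMP and 73.3% and 74.5% in TRPC2, the larger share in both TRPC2 libraries. Without cldnh the claudin sums had a ratio of 3.37.

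cldn7b, whose mammalian counterpart is common to many epithelia, was at 212 and 186 RPM in OMP, against 218 and 73.5 RPM in TRPC2. It overlapped between classes in the same way, and its log2 fold change of -0.32 (SE 0.56, adjusted p = 0.770 in edgeR) turned to 0.24 with library totals only and 0.64 in limma. cldnb, a claudin of the lateral line primordium and skin in zebrafish, was at 297 and 264 RPM in OMP, against 124 and 29.2 RPM in TRPC2. cldne was at 63.9 and 81.1 RPM in OMP, against 36.5 and 9.25 RPM in TRPC2. Both cldnb and cldne were lower in each TRPC2 library than in either OMP library, and lowest in the second. The edgeR log2 fold changes were 1.12 (SE 0.70, adjusted p = 0.373) for cldnb and 0.91 (SE 0.70, adjusted p = 0.468) for cldne.

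cldni was at 248 and 293 RPM in OMP, against 12.6 and 0.15 RPM in TRPC2, a ratio of means of 42.3. It took 13.1% and 14.2% of claudin reads in OMP and 0.780% and 0.0219% in TRPC2. Every TRPC2 value was far below every OMP value, though the TRPC2 libraries themselves were widely apart. edgeR gave a log2 fold change of 4.66 (SE 1.88, adjusted p = 0.183). With 1 library left out, the log2 fold change of cldni ran from 3.68 without the second TRPC2 library to 9.81 without the first. cldn12 was at 61.3 and 67.2 RPM in OMP, against 15.5 and 13.2 RPM in TRPC2, with a log2 fold change of 1.38 (SE 0.36, adjusted p = 0.0741 in edgeR). The libraries of each class lay close together for cldn12.

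Among the claudins named, cldn1 and cldn7a had no TRPC2 read. cldn1, whose mammalian counterpart is needed for the barrier of the epidermis, was at 25.7 and 31.3 RPM in OMP, at least 820-fold above the mean floor of the TRPC2 libraries. cldn7a was at 13.1 and 16.5 RPM in OMP, at least 425-fold above it. edgeR gave both an adjusted p of 0.0721. cldng, at 0.93 and 6.46 RPM in OMP and with no read in TRPC2, was at least 106-fold above the floor and differed widely between the OMP libraries. cldnf was at 5.89 and 5.73 RPM in OMP, against 0.02 and 0 RPM in TRPC2, and cldna was at 3.53 and 2.45 RPM in OMP, against 0 and 0.02 RPM in TRPC2. cldnc and cldn10a, also named for a low p, were under 0.40 RPM in OMP and had no TRPC2 read, and CLDN22 was at 0.83 and 0.55 RPM in OMP, against 0 and 0.01 RPM in TRPC2.

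cldnd1a was the only member with both TRPC2 libraries above both OMP libraries by RPM. This claudin domain gene was at 11.9 and 8.44 RPM in OMP, against 16.8 and 25.5 RPM in TRPC2, so TRPC2 was 2.07 times OMP. The log2 fold change was -1.85 (SE 0.52), with an adjusted p of 0.0875 in edgeR, the lowest among members higher in TRPC2. DESeq2 gave an adjusted p of 0.0149, within a range of 0.00503 to 0.857 over the alternatives.

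Some claudins are known from tissues other than skin. cldn5a, known from the brain ventricle barrier, was at 4.15 and 1.98 RPM in OMP, against 0.01 and 0 RPM in TRPC2. cldn5b, known from endothelium, was at 12.04 and 8.32 RPM in OMP, against 1.65 and 4.98 RPM in TRPC2. The endothelial cadherin gene cdh5 was at 6.14 and 1.53 RPM in OMP, against 0.65 and 1.21 RPM in TRPC2, where kdrl, fli1a, vwf and egfl7 had no read. The 10 endothelial genes, cldn5b included, summed to 28.9 and 17.8 RPM in OMP, against 2.66 and 10.96 RPM in TRPC2, and 8 of them were higher in both OMP libraries, or 80%, where 53.3% of all genes were. With TMM effective library sizes 6 of the 10 were, against 41.7% of all genes. The exceptions by RPM were clec14a and vwf. clec14a was at 0.71 and 1.42 RPM in OMP, against 0 and 4.46 RPM in TRPC2, and vwf at 0.25 and 0 RPM in OMP.

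cldn11a, whose mammalian counterpart is a myelin claudin, was at 24.2 and 24.1 RPM in OMP, against 0.66 and 11.6 RPM in TRPC2. cldnk, a marker of zebrafish myelinating glia, was at 0.07 and 0.90 RPM in OMP, against 0.03 and 0.05 RPM in TRPC2, too low to be tested. Beside them the glial transcription factor gene olig2 was at 58.2 and 52.6 RPM in OMP, against 1.60 and 2.18 RPM in TRPC2. The myelin gene mbpb was at 40.5 and 43.8 RPM in OMP, against 17.8 and 13.3 RPM in TRPC2, and the glial gene sox10 at 11.3 and 15.4 RPM in OMP, against 17.6 and 48.6 RPM in TRPC2. The 11 glial genes, which include cldnk, cldn19, cldn11a and cldn11b, summed to 157 and 157 RPM in OMP, against 42.7 and 78.7 RPM in TRPC2, where mbpa had no read in any library. The part of glial or endothelial RNA in these claudin levels was not tested. CLDN18, known from mammalian stomach and lung, was at 0.40 and 0.63 RPM in OMP, against 2.69 and 0 RPM in TRPC2, so a single library held all of its TRPC2 reads, and its log2 fold change of -2.13 (SE 2.58) turned to 8.50 without that library. cldn15la, a gut claudin in zebrafish, was under 0.50 RPM in every library.

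Of the 38 claudins, 27 had both OMP libraries above both TRPC2 libraries by RPM, or 71.1%, against 53.3% of all genes, and 1 had the reverse, against 5.61%. With TMM effective library sizes 24 were higher in OMP, against 41.7% of all genes, and 1 in TRPC2, against 14.0%. Among the 20 claudins with a mean over 1 RPM, 17 were higher in OMP, against 53.2% of genes at that level, 1 was higher in TRPC2, against 9.6%, and cldnh and cldn7b overlapped. edgeR called 0 of 28 claudins tested at an adjusted p under 0.05. At an unadjusted p under 0.05 it gave 11 higher in OMP, where 23.3% of tested genes were, and 1 higher in TRPC2, where 7.18% were. Of those 11, 10 had no more than 3 TRPC2 reads in all, and cldn12 was the only other. DESeq2 called 10 claudins higher in OMP and 1 higher in TRPC2, limma on log2(RPM + 0.5) called 12 and 0, and edgeR with a replicate block called 3 and 0. In these directions DESeq2 called 13.2% and 5.85% of all genes, limma 23.5% and 0.785%, and the replicate block 1.56% and 1.27%. Without 1 OMP library edgeR called 2 claudins higher in OMP in each case, and without the first or the second TRPC2 library 17 or 19, beside the 0.582%, 0.272%, 32.6% and 34.9% of all genes called in these fits. The median log2 fold change of the tested claudins was 2.38, or 2.08 with the 5 genes without a TRPC2 read at their bound, beside 0.49 over all genes tested. As with the keratins, members that passed the filter through OMP alone had to be higher there, so these counts and medians are a description.

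**Figure D3:**
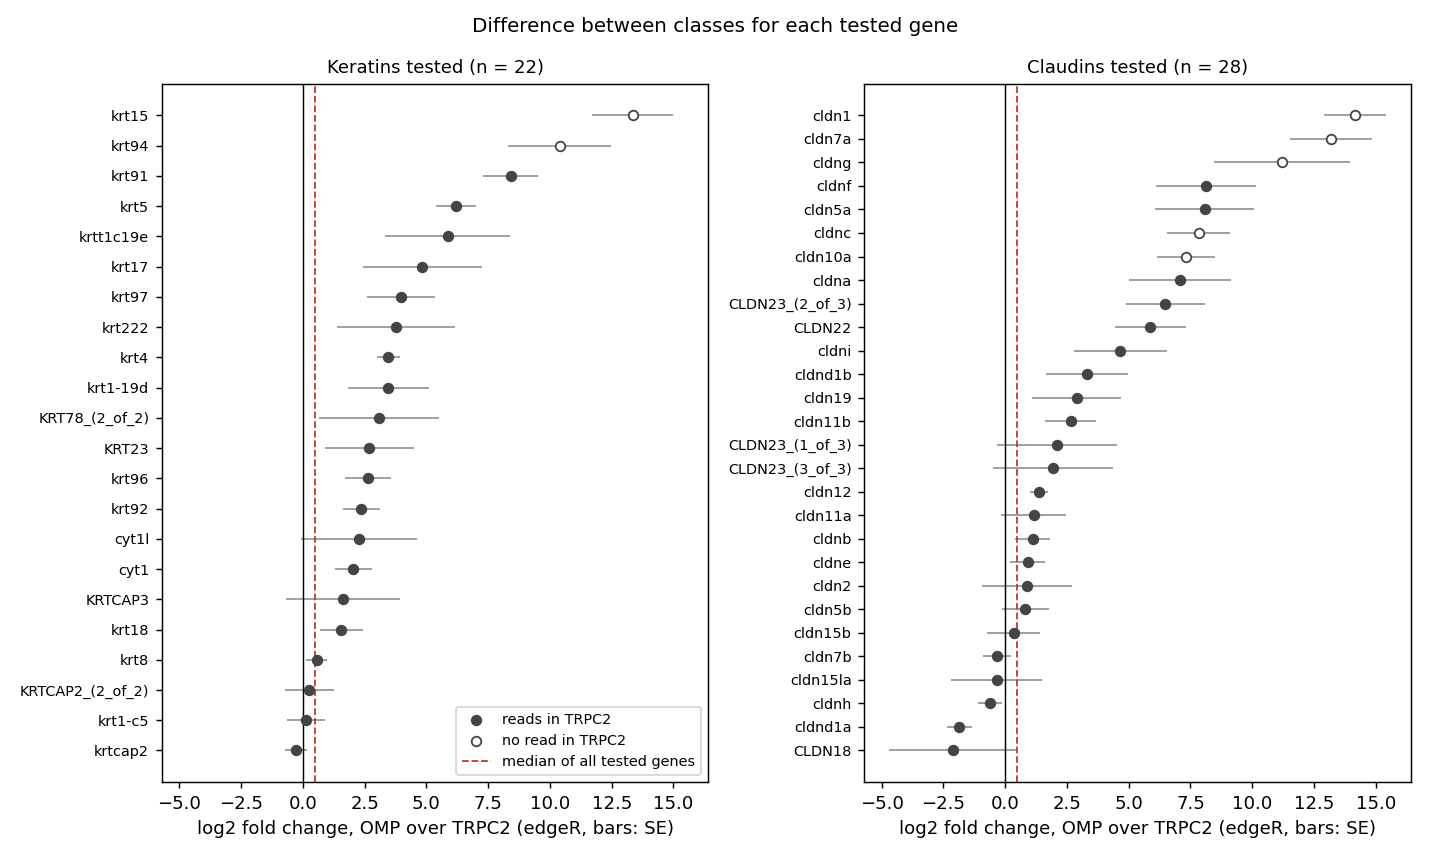
Log2 fold change of OMP over TRPC2 from edgeR with its standard error for tested keratins and claudins, with the median over all tested genes of 0.49 as a dashed line and open circles for genes without a TRPC2 read. krt8 at 0.55 sits on that line, cldnh at -0.62 and cldnd1a at -1.85 sit to its left, and krt4 at 3.46 and krt91 at 8.42 to its right.

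To set the members beside other epithelial genes in the same library, RPM were divided by the sum of cdh1 and epcam, adhesion genes of most epithelia. This denominator was chosen after its values were seen. Whether it follows the whole epithelial RNA of a library was not tested. cdh1 and epcam summed to 1066 and 1185 RPM in OMP, against 1300 and 444 RPM in TRPC2, so both sorts held them. Most of the sum was epcam, at 890 and 1004 RPM in OMP, against 1181 and 371 RPM in TRPC2, so it overlapped between classes. cdh1 was at 176 and 181 RPM in OMP, against 119 and 73.0 RPM in TRPC2, higher in both OMP libraries. Claudins were 1.78 and 1.74 times the sum of cdh1 and epcam in OMP and 1.25 and 1.58 times in TRPC2. Keratins were 3.77 and 6.07 times the sum in OMP and 0.351 and 1.25 times in TRPC2. Without cldnh, the claudins were 0.962 and 0.877 times the sum in OMP and 0.333 and 0.405 times in TRPC2. Each of these ratios was lower in both TRPC2 libraries than in either OMP library. The gap was narrowest for all claudins with cldnh included, and wider for the keratins and for the claudins without cldnh.

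By the same ratio cldnh was at 0.817 and 0.866 in OMP and at 0.914 and 1.18 in TRPC2, and cldn7b at 0.199 and 0.157 in OMP and at 0.168 and 0.165 in TRPC2. For cldn7b the TRPC2 libraries lay between the OMP values, and for cldnh both TRPC2 libraries lay above both OMP libraries. krt8 was at 0.486 and 0.506 in OMP and at 0.120 and 0.637 in TRPC2, with the second TRPC2 library above OMP. krt4 was at 1.54 and 2.38 in OMP and at 0.101 and 0.238 in TRPC2. krt91 was at 0.450 and 1.16 in OMP and at 0.00195 and 0.00155 in TRPC2, and cldni at 0.233 and 0.247 in OMP and at 0.00972 and 0.000338 in TRPC2. cldnb was at 0.278 and 0.223 in OMP and at 0.0951 and 0.0657 in TRPC2, and cldne at 0.0600 and 0.0685 in OMP and at 0.0281 and 0.0208 in TRPC2. The genes shown were picked with their RPM known, so these ratios describe them and test nothing.

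**Figure D4:**
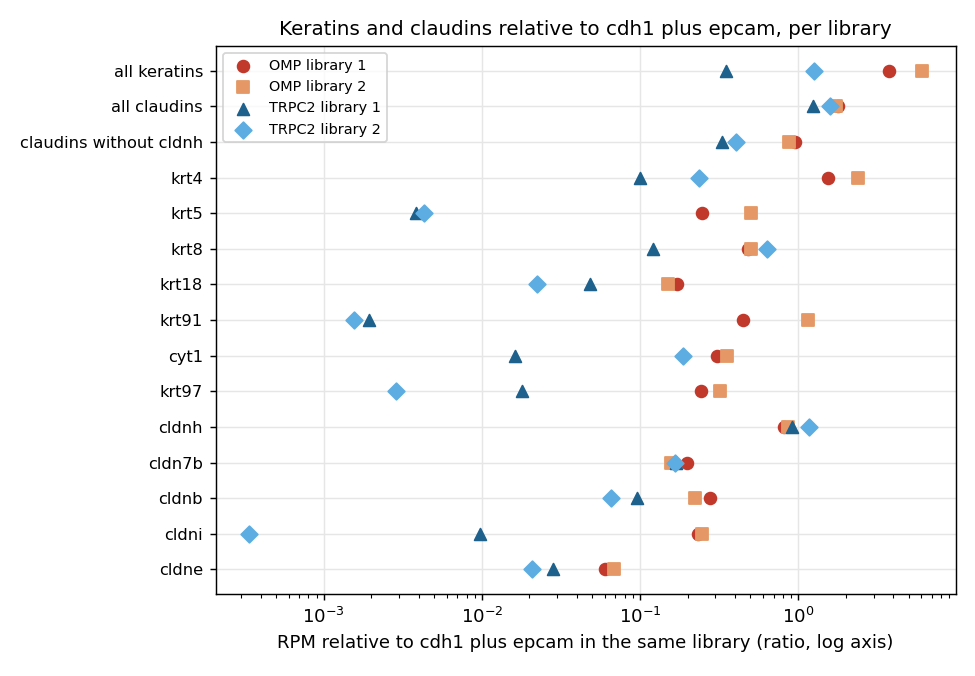
RPM of each gene or family divided by the RPM of cdh1 plus epcam in the same library (ratio, log axis), with 1 symbol for each library. cldn7b lies together in all libraries, and cldnh lies to the right in both TRPC2 libraries. krt4, krt5, krt91, cldni, cldnb and the claudins without cldnh lie to the left in both TRPC2 libraries.

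Other epithelial genes were set beside the members from lists of adhesion, olfactory support, junction, desmosome and skin genes. The 14 epithelial adhesion genes, cdh1 and epcam included, summed to 1608 and 1778 RPM in OMP, against 1726 and 516 RPM in TRPC2. By RPM 10 of them were higher in both OMP libraries, or 71.4%, where 53.3% of all genes were. With TMM effective library sizes 4 were, against 41.7% of all genes. The 11 olfactory support and basal cell genes, krt5, krt8 and krt18 included, summed to 1460 and 1792 RPM in OMP, against 538 and 382 RPM in TRPC2. Those keratins alone held 964 and 1373 RPM of the OMP sums and 224 and 294 RPM of the TRPC2 sums, so this sum partly repeats the keratin values. By RPM 8 of the 11 were higher in both OMP libraries, or 72.7%, where 53.3% of all genes were. With TMM effective library sizes 6 were, against 41.7% of all genes. Partners of claudins at the tight junction, 26 genes, summed to 913 and 972 RPM in OMP, against 1004 and 409 RPM in TRPC2. f11r.1, a junctional adhesion molecule, was at 341 and 371 RPM in OMP, against 577 and 162 RPM in TRPC2, and oclna, an occludin, at 98.3 and 117 RPM in OMP, against 60.3 and 17.3 RPM in TRPC2. lsr, the lipolysis-stimulated receptor of tricellular junctions, was at 52.8 and 86.0 RPM in OMP, against 47.8 and 14.8 RPM in TRPC2. f11r.1 overlapped between classes as cldnh did, while oclna and lsr did not, and 16 of the 26 partners were higher in both OMP libraries, or 61.5%, where 53.3% of all genes were. With TMM effective library sizes 11 of the 26 partners were, against 41.7% of all genes, and 3 were higher in both TRPC2 libraries, against 14.0%. The 14 desmosome genes, whose proteins anchor keratin filaments to the membrane, summed to 455 and 487 RPM in OMP, against 221 and 134 RPM in TRPC2. Among them jupa, a plakoglobin, was at 159 and 177 RPM in OMP, against 88.2 and 59.7 RPM in TRPC2, perp at 95.7 and 112 RPM, against 36.8 and 17.45 RPM, and the plakophilin pkp3a at 49.4 and 46.7 RPM, against 51.6 and 14.5 RPM. edgeR called none of the partners or desmosome genes at an adjusted p under 0.05, as of all genes. At an unadjusted p under 0.05, 5 partners and 3 desmosome genes were higher in OMP, shares of these lists that lie under the 23.3% of all tested genes. At that level 1 partner was higher in TRPC2, where 7.18% of tested genes were. By RPM 12 of the 14 desmosome genes were higher in both OMP libraries, or 85.7%, where 53.3% of all genes were. With TMM effective library sizes 11 were, against 41.7% of all genes.

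Basal epidermis was described by a list of 11 genes. These summed to 260 and 240 RPM in OMP, against 72.5 and 38.4 RPM in TRPC2, with none at 0 in both TRPC2 libraries. tp63, the transcription factor of basal epidermal cells, was at 40.5 and 45.3 RPM in OMP, against 2.78 and 4.31 RPM in TRPC2, with a log2 fold change of 2.80 (SE 0.52, adjusted p = 0.0721 in edgeR). itgb4, an integrin of hemidesmosomes, was at 38.5 and 30.1 RPM in OMP, against 5.85 and 5.43 RPM in TRPC2. lama5, a laminin chain of the basement membrane, was at 83.9 and 71.2 RPM in OMP, against 44.6 and 15.3 RPM in TRPC2, with a log2 fold change of 0.61 (SE 0.57, adjusted p = 0.553 in edgeR). Of the 11 genes, 10 were higher in both OMP libraries, or 90.9%, against 53.3% of all genes. With TMM effective library sizes 7 of the 11 were, against 41.7% of all genes. In edgeR none was called at an adjusted p under 0.05 and 3 were higher in OMP at an unadjusted p under 0.05, where 23.3% of tested genes were.

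The 14 periderm genes summed to 1604 and 1593 RPM in OMP, against 1843 and 1873 RPM in TRPC2, against the direction of krt4 and cyt1. That sum rested on icn, a calcium-binding S100-type gene on the periderm list, which was at 823 and 610 RPM in OMP, against 1655 and 1718 RPM in TRPC2. Other genes of the list went the way of krt4, such as anxa1a, an annexin, at 219 and 342 RPM in OMP, against 34.7 and 43.8 RPM in TRPC2, and cfl1l, a cofilin-like gene, at 303 and 330 RPM in OMP, against 58.9 and 34.6 RPM in TRPC2. Of the 14 genes, 10 were higher in both OMP libraries, or 71.4%, where 53.3% of all genes were, 3 overlapped, and icn was higher in both TRPC2 libraries, as 5.61% of all genes were. With TMM effective library sizes 9 were higher in OMP, against 41.7% of all genes, and 3 in TRPC2, against 14.0%. Among the overlapping genes, icn2 was at 4.40 and 2.71 RPM in OMP, against 2.95 and 11.2 RPM in TRPC2. evpla was at 9.24 and 7.32 RPM in OMP, against 24.2 and 6.83 RPM in TRPC2, so both had the higher mean in TRPC2. ppl, at 28.4 and 24.5 RPM in OMP, was at 0.27 and 21.6 RPM in TRPC2. The list therefore gave no single direction for periderm RNA. The part of skin RNA in the difference between the sorts was not tested.

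The OMP libraries differed from each other in their keratins. The second was above the first for 19 of 21 keratins with a mean over 1 RPM, or 90.5%, for 10 of 20 claudins and for 48.1% of 15299 genes. The median log2 ratio of the second over the first was 0.54 for keratins and 0.06 for claudins. krt4 was 1.72 times higher in the second library, krt5 2.25 times, krt91 2.87 times and krtt1c19e 4.03 times. The summed red blood cell genes were 10.1 times higher in the same library, and the part of either in the other was not tested. In the TRPC2 libraries the second was above the first for 7 of 21 keratins, 7 of 20 claudins and 46.4% of 15299 genes. The median absolute log2 ratio between the TRPC2 libraries was 1.17 for keratins and 1.097 for claudins, against 0.54 and 0.26 in OMP. Members of both families were less repeatable in TRPC2, as were all 15299 genes, at 0.996 against 0.30.

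**Figure D5:**
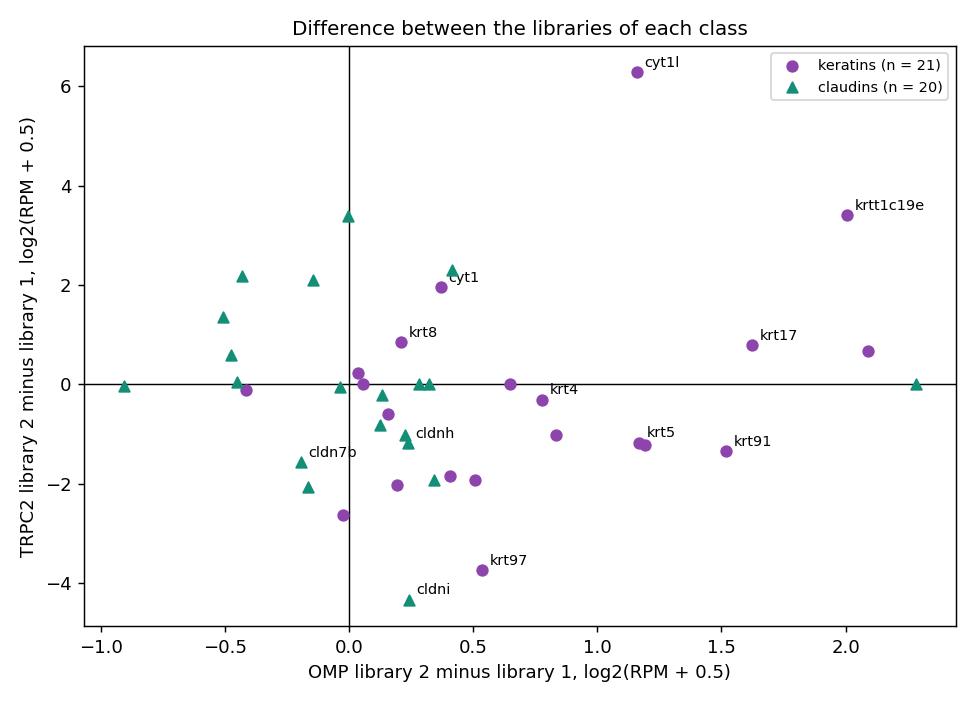
Log2 ratio of library 2 over library 1 within OMP and within TRPC2 for keratins and claudins with a mean over 1 RPM, on log2(RPM + 0.5), 1 point for each gene. In OMP 19 of 21 keratins have a log2 ratio above 0. The claudins have a median absolute log2 ratio of 0.26 there, with cldng farthest out at 2.28. In TRPC2 the median absolute log2 ratio of both families is larger.

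Several members are neighbours in the genome. The gene order was read from RefSeq, in which 48 members were found by symbol and 5 by a synonym, and members were grouped where at most 4 other protein-coding genes stood between them. The group krt1-19d, krtt1c19e, krt92, cyt1l, cyt1, krt17 and krt91 summed to 1067 and 2511 RPM in OMP, against 35.2 and 132 RPM in TRPC2. All 7 genes were higher in both OMP libraries, where 53.3% of all genes were. The group krt222, krt97 and krt96 summed to 274 and 397 RPM in OMP, against 25.2 and 2.00 RPM in TRPC2. The group krt5, krt8 and krt18 summed to 964 and 1373 RPM in OMP, against 224 and 294 RPM in TRPC2, and within it krt5 differed far more between classes than krt8. The claudins cldnh, cldnc, cldnb and cldnd are also neighbours, with sums of 1168 and 1291 RPM in OMP and of 1312 and 553 RPM in TRPC2, and cldnh overlapped between classes there while cldnb did not. Sequence identity between members was not measured, and how reads that match several members were counted is not given in the sources used here. Values of single genes and group sums could both be affected.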

How the data were processed

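RNA from 4 libraries of FAC sorted OSNs was measured. Reads were mapped by the authors to GRCz10 with STAR, then counted with VERSE. Tool versions, the annotation and any strand setting: not given in the sources used here. Deposited by the authors were whole-number counts for each gene symbol, and RPM, the counts scaled by a library total that exceeds the sum over genes. RPM served for levels. For the comparison of OMP with TRPC2, edgeR 4.0.16 in R 4.3.3 was run on the deposited counts of all genes (glmQLFit, glmQLFTest, TMM, filterByExpr at its defaults), with no term but class and Benjamini-Hochberg adjustment over 21026 genes. No source says that libraries came from separate batches of embryos. The p-values therefore reflect library spread, which may be technical. The test was also run on simulated counts with known changes. The outcome is not reported here, so that run says nothing about the power of the test in these libraries.

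Genes named are the 10 keratins and 10 claudins with the highest mean RPM, up to 5 per family and direction with the smallest p, every member higher in both TRPC2 libraries, a set of markers, and the 3 genes of each list with the highest mean, of which the globins, the gut genes fabp2 and vil1 and the filament genes lmnb1 and inaa are given only in their lists' sums. Other members named (krt1-c5, krt17, krt96, KRT23, KRTCAP2_(2_of_2), krt93, krt95, KRT78_(1_of_2), cldnf, cldna, cldng and the neighbours) were chosen after their values were seen, as were fli1a, vwf, egfl7, foxi3a, foxi3b, ceacam1 and rhcgb. The genes trpc2a, trpc2b, ompa, kdrl, mbpa, icn2, evpla and ppl came from a list of cell type markers. Members, lists and tests were chosen with earlier results of these data known. Gene order and synonyms came from RefSeq annotation of another assembly, from which no coordinates were taken. Alternatives were other normalizations and filters, DESeq2 1.42.0, limma 3.58.1, a block by replicate number and leaving out single libraries.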

Additional observations from a re-analysis of the deposited data

How the results depend on the processing

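edgeR called 0 genes in either direction, 6417 of 21026 having an unadjusted p under 0.05. The calls higher in OMP and in TRPC2 were 2782 and 1230 with DESeq2, 4945 and 165 with limma on log2(RPM + 0.5), 5350 and 175 on log2(RPM + 0.1), 329 and 268 with the replicate block, and 60 to 8023 and 50 to 3773 with 1 library left out. Keratins called higher in OMP were 8 with DESeq2, 11 and 9 with limma at those pseudocounts, 9 with the replicate block and 4 to 18 with 1 library left out, and none was called higher in TRPC2. Claudins called higher in OMP were 10, 12, 12 and 3 in the same order and 2 to 19 with 1 library left out, and those higher in TRPC2 were 1 with DESeq2 and 0 to 4 with 1 library left out. Replicate numbers do not pair these libraries by any label, so the replicate block has no basis in the design. Deviations from the class means had a correlation of -0.00037 over 21026 genes between the first OMP and the first TRPC2 library. Why the tools differ was not tested. Other normalizations, other filters and leaving out red blood cell genes gave 0 calls.

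The log2 ratio of summed keratins was 3.47 by RPM, 2.68 with TMM effective library sizes and 2.99 to 3.83 with 1 library left out. That of summed claudins was 0.77 by RPM, 0.0023 with TMM effective library sizes, 1.75 without cldnh and 0.29 to 1.49 with 1 library left out. The median log2 fold change of all tested genes, 0.49 here, was 0.36 with RLE size factors or DESeq2, 1.13 with library totals only, 0.12 where 100 counts were required in 2 libraries, 1.06 without a filter, 0.91 and 1.504 with limma and 1.19 with the replicate block.

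Of 30 named members tested, 5 changed sign under an alternative and 25 did not. The log2 fold change of krtcap2 turned to 0.47 and 0.48 in limma and to 0.38 on library totals. cldnh was at 0.26 with limma at either pseudocount. cldn7b was at 0.24 with library totals only, at 0.64 and 0.65 with limma, and at -0.88 to 0.47 with 1 library left out. CLDN18 was at 0.19 with limma on log2(RPM + 0.1), at 1.05 with the replicate block and at -3.13 to 8.50 with 1 library left out. cldn15la was at 0.13 with library totals only, at 0.19 and 0.70 with limma, at 1.54 with the replicate block and at -1.34 to 7.64 with 1 library left out. Fold changes of members with no TRPC2 read depend on the prior count and are not bounds. Depth limits the members with 3 or fewer TRPC2 reads, whose levels lie at or under the floor.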

Other observations

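Lists of other cell types were summed in the same way. General neuronal genes, 12 in all, were at 3033 and 1949 RPM in OMP, against 3649 and 8315 RPM in TRPC2, with 6 of them higher in both TRPC2 libraries, or 50%, where 5.61% of all genes and 9.6% of those with a mean over 1 RPM were. The olfactory transduction genes cnga4, at 104 and 170 RPM in OMP and 30.2 and 28.6 RPM in TRPC2, and gnal, at 118 and 102 RPM in OMP and 6.65 and 12.04 RPM in TRPC2, went the other way. The tubulin gene tubb5, the synuclein gene sncb and the G protein gene gng3 had log2 fold changes of -2.48 (SE 0.72), -2.92 (SE 0.65) and -1.84 (SE 0.37), with adjusted p of 0.0923, 0.0721 and 0.0721 in edgeR. Ionocyte and mucous cell genes summed to 66.1 and 52.1 RPM in OMP, against 9.24 and 6.15 RPM in TRPC2, where foxi3a, foxi3b, ceacam1 and rhcgb had no read. Its genes with the most reads were agr2, at 46.4 and 31.5 RPM in OMP and 8.66 and 5.52 RPM in TRPC2, the mucin gene muc5.1, at 10.24 and 2.85 RPM in OMP and 0 and 0.01 RPM in TRPC2, and slc12a10.2, at 1.33 and 8.25 RPM in OMP and 0.03 and 0.45 RPM in TRPC2. Intermediate filament genes other than keratins summed to 456 and 422 RPM in OMP, against 274 and 215 RPM in TRPC2, and the lamin gene lmnb2 was at 166 and 140 RPM in OMP, against 84.5 and 30.8 RPM in TRPC2. Gut epithelium genes summed to 4.33 and 2.84 RPM in OMP, against 0.60 and 10.6 RPM in TRPC2. The epithelial transcription factor elf3 was at 193 and 196 RPM in OMP, at 172 RPM in the first TRPC2 library and at 6.25 RPM in the second.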
